A study of Mus musculus with 38 samples.

Results

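Of the 31829 gene names on the array, 52 (0.163%) had a transient peak in control mouse retinas, 13 of them highest at postnatal day 3 (P3) and 39 highest at P6. They were chosen by the control values of the deposited table of log2 intensities. For each gene the brightest probe was taken, and the higher of its P3 and P6 control means had to reach 8 and to exceed both the P0 and the P10 control mean by at least 1. The control profile therefore chose the members and is given as a description with no test. The tests use the conditional knockout (cKO) retinas, whose values took no part in the choice.

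Gene expression was measured at P0, P3, P6 and P10 in single retinas on 2-colour Agilent arrays, and each array carried a control and a cKO retina of the same age. Each of the earlier ages had 5 control and 5 cKO retinas, whereas P10 had 4 and 4, making 38 in all, and a further P10 array was not analysed here. The tissue was whole neural retina without pigment epithelium, and no retinas were pooled. Control mice were Crb2 F/+ Chx10Cre+/- and cKO mice were Crb2 F/F Chx10Cre+/-, both backcrossed to C57BL/6J. Both groups carried Cre, so an effect of Cre alone is shared by them, and Chx10Cre acts in a mosaic of retinal progenitor cells. Crb2 codes for a transmembrane protein of the junctions between photoreceptors and Müller glia. The Crb2 probe lies outside the deleted part of the gene, so its signal checks nothing on the knockout. For P10, 1 supplementary listing exchanges the genotypes, and the sample labels were used.

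In the mouse, retinal progenitor cells make their last neurons and Müller glia in the days after birth, while earlier born neurons form their synapses. Newly born neurons pass through a precursor state with transcription factors and cell cycle regulators of its own, and genes of such a state can rise and fall within days. Over the same days vessels spread across the retinal surface and dive into it, and neural tissue not yet reached by them responds to low oxygen.

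In control retinas the 52 members exceeded the higher of their P0 and P10 means by a median of 1.24 log2 units in the values recomputed from the scanner intensities. The same excess, at the peak age set by the controls, had a median of 1.14 in cKO retinas and ranged from 0.25 to 2.11. Over all 31705 genes in the fit the median cKO excess was -0.12. The cKO excess was below the control excess in 46 of 52 members, a direction that a choice on control values favours, and it was 1 or more in 33. Applied to the cKO columns instead, the rule chose 35 genes, and the 34 of them that are members make up 65.4% of the members and 97.1% of the 35. A retina can hold more RNA of a gene because it has more cells of a type or more RNA per cell, and these cannot be told apart in bulk tissue.

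**Figure D1:**
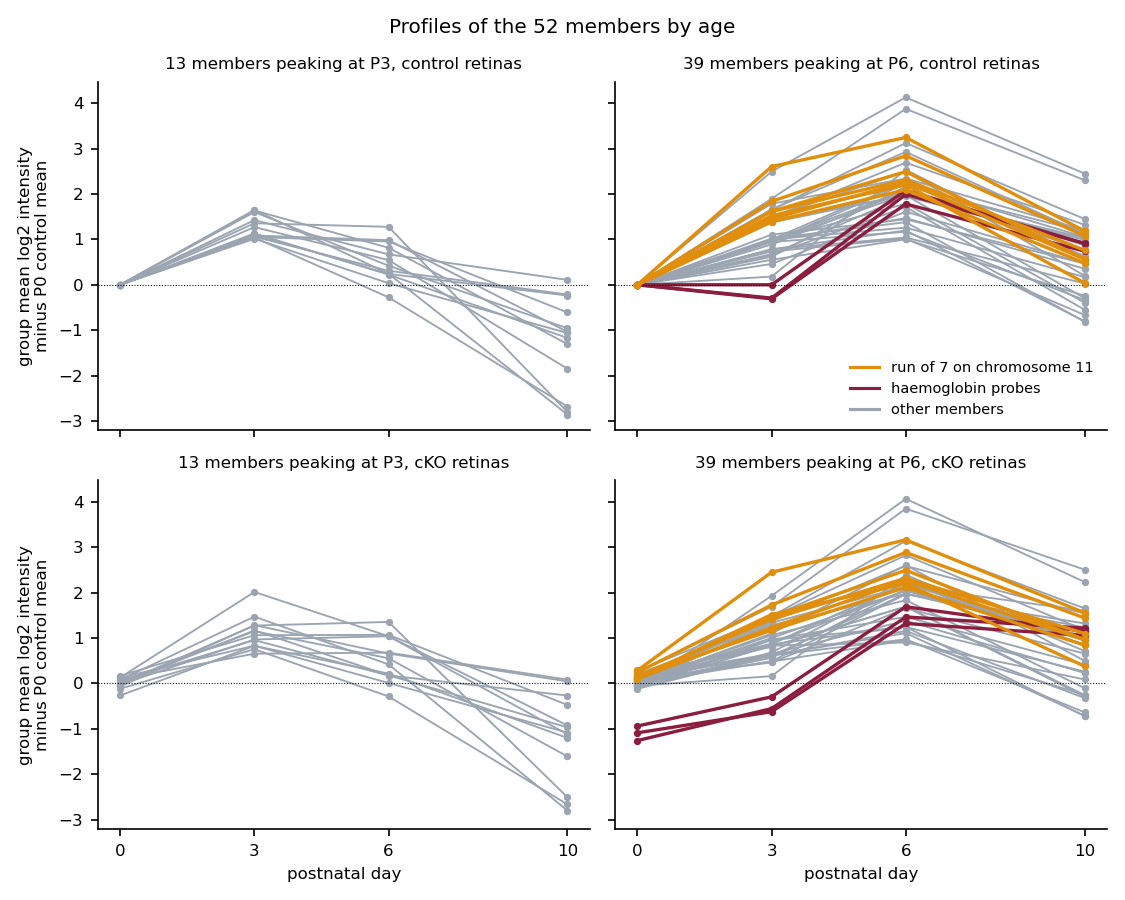
Group mean log2 intensity of each member minus its P0 control mean, by postnatal day, for the 13 P3 members (left) and 39 P6 members (right) in control (top) and cKO retinas (bottom), with the chromosome 11 run in orange and haemoglobin probes in dark red. The lines rise to P3 or P6 and fall by P10 in both genotypes.

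A member was counted as transient in cKO retinas when its peak age was above both P0 and P10, each with a limma p below 0.05 after Benjamini-Hochberg adjustment over all 39283 probes. By this measure 47 of 52 members (90.4%) were transient. Shares of all genes, here and below, are over all 31705 genes in the fit. Of these, 14572 had a control peak level of 8 or more, as the members do. No share was taken over the 14572 alone, so the shares are not matched for level. Among the 13 members highest at P3, 12 were above P0 and 12 above P10 in cKO retinas, where 6.93% and 20.2% of all genes passed. The same 12 passed both, against 0.883% of all genes, and in 10 of 13 every P3 cKO retina lay above every P0 and P10 cKO retina, against 0.571%. Among the 39 members highest at P6, all 39 were above P0 and 35 above P10, against 19.5% and 14.2% of all genes. Both were met by 35, against 2.08%, and 34 had no overlap between P6 and either other age, against 1.39%. The cKO retinas were hybridized on the arrays that carried the controls, so they are separate tissue but not wholly separate measurements.

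The P3 and P6 groups differed in shape as well as in peak. In cKO retinas 37 of the 39 P6 members were higher at P6 than at P3, against 15.2% of all genes, and the exceptions were Nxph4 and 2810055F11Rik. Compared with P0, 28 of the 39 were still higher at P10, 7 were lower and 4 were not apart, where 22.4% of all genes were higher and 25.3% lower. Of the 13 P3 members, 9 were higher at P3 than at P6, against 12.7% of all genes, and Insm2, Gadd45g, Stac3 and Hmox1 were not apart between these ages. None of the 13 was higher at P10 than at P0 by limma, 10 were lower and 3 were not apart. Most P3 members thus ended below their level at birth, and most P6 members above it.

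**Figure D2:**
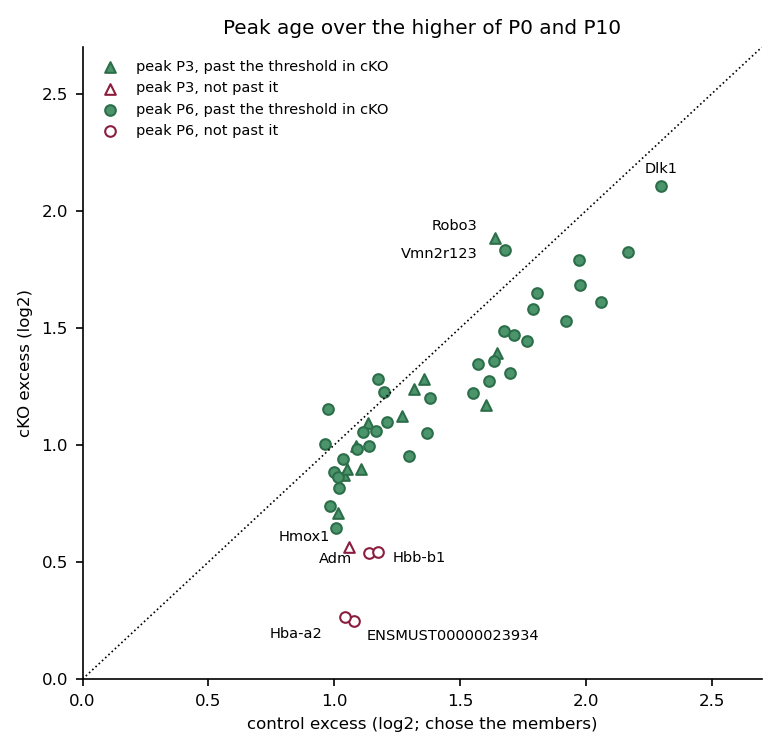
Excess of the peak age over the higher of P0 and P10, in log2 units, for each member in control (horizontal) and cKO retinas (vertical), with triangles for P3 members, circles for P6 members and open symbols for the 5 members not called in cKO retinas. The dotted line marks equal values, and 46 of 52 members lie below it.

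Age and slide are partly tied together, because the arrays of neighbouring ages shared a slide only in part. On the slide with 3 P3 and 1 P0 cKO retinas, all 13 P3 members were higher at P3 than at P0, by a median of 1.14 log2 units against 1.09 over all slides. The lone P0 retina, replicate 5, was the lowest P0 cKO retina in 21 of 52 members, so these differences are a description. On the slide with 2 cKO retinas each of P3 and P6, all 39 P6 members were higher at P6, by a median of 1.09 against 1.04, and 25 passed the threshold, against 6.12% of all genes. On the slide with 3 P6 and 1 P10 cKO retinas all 39 were higher at P6, by a median of 1.61 against 1.28. The lone P10 retina, replicate 1, was the lowest P10 cKO retina in 35 of 52 members, so these differences too are a description. No slide held both P3 and P10 or both P0 and P6 retinas. RNA integrity, as listed by the study, was mostly lower at P10 than at P6. Its part in the differences between ages was not tested.

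Some retinas stood apart over many members at once. Besides those P0 and P10 cKO retinas, replicate 3 was the highest P10 control in 33 members. Replicate 3 was the highest P3 control in 29 members, replicate 4 the lowest P3 cKO retina in 25, and replicate 2 the highest P0 cKO retina in 24. Without the array of P10 replicate 1, Gje1 was no longer called and 46 members were transient. Without the array of P0 replicate 2, Hmox1 was called as well and 48 were transient. No other array changed the call of a member when it was left out.

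Several members code for secreted or membrane signals, a grouping made by hand from what the genes are known for, as are those that follow. Dlk1, which codes for a transmembrane relative of the Notch ligands known from progenitor cells of fat and other tissues, had the largest excess in both genotypes. In control retinas Dlk1 read 7.23, 8.09, 8.20, 8.06 and 8.10 log2 units at P0, 9.28, 9.45, 9.97, 9.34 and 9.09 at P3, 10.46, 10.30, 10.38, 10.53 and 10.49 at P6, then 8.05, 8.20, 8.23 and 8.05 at P10. In cKO retinas Dlk1 read 8.04, 8.76, 7.55, 7.47 and 7.96 at P0, 9.43, 8.96, 9.01, 8.64 and 9.14 at P3, 10.63, 10.45, 10.43, 10.64 and 10.56 at P6, then 8.18, 8.50, 8.41 and 8.65 at P10. All P6 retinas lay above all retinas of the other ages, and the genotypes overlapped at P0, P3 and P6 but not fully at P10, where 1 cKO retina was within the control range. Dlk1 was 6-fold higher at P6 than at P0 in cKO retinas (log2 2.58 ± 0.18, standard error, limma adjusted p = 9.05e-14) and 4.31-fold higher than at P10 (log2 2.11 ± 0.20, adjusted p = 1.5e-10). Its second, dimmer probe had an excess of 1.85 in control and 1.62 in cKO retinas.

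Nts and Tac4 code for precursors of the neuropeptides neurotensin and hemokinin. In cKO retinas Nts read 6.75, 6.30, 6.81, 6.54 and 7.20 at P0, 6.76, 6.71, 6.32, 7.40 and 7.49 at P3, 9.04, 8.98, 9.10, 9.30 and 9.42 at P6, then 7.10, 7.56, 7.62 and 7.67 at P10. The controls read 6.54, 6.72, 6.80, 6.67 and 7.15 for Nts at P0, 6.81, 6.47, 6.35, 7.46 and 7.68 at P3, 9.42, 9.28, 9.58, 9.06 and 9.20 at P6, then 7.13, 7.12, 7.38 and 7.69 at P10. Nts thus stood apart at P6 alone, with P0 and P3 retinas overlapping and replicates 4 and 5 above the other P3 retinas in both genotypes. Those P3 retinas were on the slide shared with P6, and the part of the slide in this difference was not tested. From P0 to P6 its cKO mean rose 5.46-fold (log2 2.45 ± 0.22, limma adjusted p = 2.3e-11), and the P6 mean was 3.21-fold above that at P10 (adjusted p = 5.08e-07). Tac4 had P6 cKO retinas at 8.62, 8.08, 8.07, 8.09 and 8.33, above all cKO retinas of P0 (6.30 to 7.10), P3 (7.19 to 7.57) and P10 (6.01 to 6.52). Inhbb, a subunit of activin B, Nxph4, a secreted ligand of neurexins, and Tnfsf9, a ligand of the tumour necrosis factor family, were also transient in cKO retinas, with an excess of 1.23, 0.98 and 1.20.

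Pyy, which codes for the gut and neural peptide YY, had the largest control excess of the P3 members (1.65), while in cKO retinas Robo3 had a larger one (1.88 against 1.39). Pyy in cKO retinas read 9.49, 9.83, 8.80, 8.95 and 8.54 at P0, 10.27, 10.81, 10.45, 10.33 and 10.71 at P3, 9.54, 9.47, 9.24, 9.64 and 9.42 at P6, then 6.30, 6.21, 6.23 and 6.22 at P10. Pyy in control retinas read 8.80, 9.15, 9.07, 8.87 and 9.31 at P0, 10.67, 11.02, 10.89, 10.49 and 10.38 at P3, 9.15, 9.25, 9.08, 9.47 and 9.47 at P6, then 6.21, 6.12, 6.19 and 6.20 at P10. Every P3 retina lay above every retina of the other ages, P0 and P6 overlapped, and P10 was lowest with almost no spread. Pyy fell 19.4-fold from P3 to P10 in cKO retinas (log2 difference 4.27 ± 0.17, limma adjusted p = 8.9e-21), after a 2.62-fold rise from P0 to P3 (log2 1.39 ± 0.16, adjusted p = 1.36e-07).

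Among the P3 members are genes known from newborn neurons and from axon growth. Insm2 codes for a zinc finger protein related to Insm1, a factor of newly born neurons and endocrine cells, and Gadd45g for a stress and cell cycle regulator known from neurogenic precursors. Insm2 in cKO retinas read 11.93, 11.62, 12.30, 11.89 and 12.01 at P0, 13.39, 13.31, 13.04, 13.06 and 13.34 at P3, 13.40, 13.53, 13.13, 13.23 and 13.26 at P6, then 8.68, 9.56, 9.83 and 9.71 at P10. Gadd45g in cKO retinas read 13.70, 13.64, 13.69, 13.38 and 13.57 at P0, 15.00, 14.72, 14.60, 14.11 and 14.52 at P3, 14.45, 14.42, 14.80, 14.90 and 14.74 at P6, then 12.65, 12.58, 12.89 and 12.66 at P10. Both genes held a plateau over P3 and P6, whose retinas overlapped, and both ended below their P0 values with no overlap. Insm2 was 2.43-fold higher at P3 than at P0 (limma adjusted p = 2.28e-07) and 13.8-fold higher than at P10 (adjusted p = 5.59e-20) in cKO retinas. Gadd45g was 1.99-fold higher at P3 than at P0 (adjusted p = 9.98e-07) and 3.72-fold higher than at P10 (adjusted p = 6.6e-14). The controls had the same plateau, with Insm2 at 13.31 ± 0.19 (SD, n = 5) at P3 and 13.23 ± 0.15 at P6, and Gadd45g at 14.71 ± 0.15 and 14.61 ± 0.07.

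Robo3 codes for an axon guidance receptor known for commissural neurons. Robo3 in cKO retinas read 10.06, 11.56, 9.70, 10.20 and 9.37 at P0, 13.08, 11.92, 11.69, 12.15 and 11.48 at P3, 10.96, 10.85, 11.35, 11.04 and 11.25 at P6, then 9.13, 8.83, 8.94 and 8.81 at P10. Robo3 in control retinas read 10.35, 10.54, 9.80, 9.46 and 10.09 at P0, 11.70, 11.67, 12.02, 11.66 and 11.38 at P3, 11.01, 10.84, 10.79, 10.66 and 11.02 at P6, then 8.66, 8.69, 8.78 and 8.82 at P10. P3 was highest in both genotypes, but 1 cKO retina of P0, replicate 2, reached above the lowest P3 cKO retina, and replicate 1 of the P3 cKO group stood above the rest. The cKO rise from P0 to P3 was 3.69-fold (log2 1.88 ± 0.27, limma adjusted p = 4.41e-06, exact permutation p = 0.0159). Pax7, a paired box factor, was a P6 member with a cKO excess of 1.05, and the P6 member Rbm24 codes for an RNA-binding protein known for splicing in muscle and had 1.06.

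Other P3 members are known from the response to low oxygen and from energy metabolism. Pdk1 codes for a kinase that holds pyruvate out of the citric acid cycle, and Ndufa4l2 for a mitochondrial protein, and both are known targets of the hypoxia-inducible factors. Pdk1 in cKO retinas read 9.27, 9.20, 9.90, 8.83 and 9.41 at P0, 10.40, 10.79, 10.82, 10.67 and 10.70 at P3, 10.11, 10.19, 9.80, 10.03 and 10.13 at P6, then 9.58, 9.28, 9.47 and 9.42 at P10. Pdk1 in control retinas read 9.77, 9.39, 9.32, 9.21 and 9.27 at P0, 10.95, 10.82, 10.56, 10.85 and 10.91 at P3, 10.13, 10.00, 10.18, 9.96 and 10.04 at P6, then 9.45, 9.32, 9.78 and 9.45 at P10. In both genotypes all P3 retinas were above all others, and P0 and P10 overlapped, so that Pdk1 came back to its start. In cKO retinas Pdk1 was 2.56-fold higher at P3 than at P0 (log2 1.35 ± 0.13, limma adjusted p = 3.55e-09) and 2.36-fold higher than at P10 (adjusted p = 2.69e-09). Ndufa4l2 in cKO retinas was 13.80 ± 0.40 (SD, n = 5) at P0, 14.93 ± 0.24 at P3, 14.33 ± 0.12 at P6, then 12.17 ± 0.16 (n = 4) at P10. Unlike Pdk1, Ndufa4l2 ended below its P0 level, 6.77-fold lower at P10 than at P3 (limma adjusted p = 3.88e-17). Ppp1r3g, which targets a phosphatase to glycogen, rose 2.25-fold from P0 to P3 in cKO retinas (adjusted p = 0.00127) with P0 and P3 retinas overlapping.

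Adm codes for the vessel-active peptide adrenomedullin, also induced by low oxygen, and peaked at P6 in controls. Adm in control retinas read 7.16, 6.23, 6.13, 6.80 and 5.97 at P0, 8.43, 8.26, 8.25, 8.10 and 8.19 at P3, 8.10, 8.41, 9.37, 8.98 and 9.14 at P6, then 7.97, 7.59, 7.87 and 7.21 at P10. Adm in cKO retinas read 6.26, 6.56, 7.09, 6.69 and 5.56 at P0, 7.52, 7.69, 7.77, 7.59 and 8.39 at P3, 8.63, 8.99, 7.96, 8.92 and 8.49 at P6, then 7.56, 8.36, 8.37 and 7.95 at P10. The rise from P0 was clear of overlap in both genotypes, whereas the P10 cKO retinas overlapped those of P6. Adm was 4.49-fold higher at P6 than at P0 in cKO retinas (limma adjusted p = 1.83e-08), and P6 exceeded P10 by 0.54 ± 0.28 (adjusted p = 0.157, exact permutation p = 0.0794), so Adm was not called transient. With the P10 genotypes exchanged the excess was 0.94 (limma adjusted p = 0.00872) and Adm was called.

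Hmox1, which codes for the enzyme that opens the haem ring and responds to oxidative stress, was the only P3 member not called. Hmox1 in control retinas read 8.37, 8.68, 8.37, 8.44 and 8.93 at P0, 9.48, 8.68, 10.03, 10.02 and 9.85 at P3, 8.32, 9.20, 8.67, 9.10 and 9.03 at P6, then 8.32, 8.01, 8.83 and 8.20 at P10. Hmox1 in cKO retinas read 8.90, 9.22, 8.45, 8.34 and 8.33 at P0, 9.33, 9.46, 9.41, 9.05 and 8.81 at P3, 9.03, 9.25, 8.84, 9.85 and 9.20 at P6, then 8.73, 8.50, 8.50 and 8.83 at P10. The control P3 values ranged widely, with replicate 2 among the P0 values, and the cKO P3 values overlapped those of all other ages. The cKO differences were 0.56 ± 0.22 from P0 (limma adjusted p = 0.0938, exact permutation p = 0.0397) and 0.57 ± 0.24 from P10 (limma adjusted p = 0.0534, exact permutation p = 0.0317), where the exact values are not adjusted over genes. A second, dimmer Hmox1 probe had an excess of 0.09 in control and -0.22 in cKO retinas.

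The promoters of the hypoxia genes were searched for GCGTG and ACGTG, the core letters known for binding of the hypoxia-inducible factors, chosen after the members were seen. Of the 31 members with a promoter in the reference, 17 held GCGTG on either strand, against 32.4% of all 32851 promoters, each taken from 250 bases before to 50 after the start, and 9 held ACGTG, against 19.6%. GCGTG was in those of Pdk1 and Adm, and neither held ACGTG. Ndufa4l2 and Hmox1 were not among the matches to either motif, which cover only members with a promoter in the reference. A match is a description of the letters. The Adm promoter is shown because Adm is the P6 member on the hypoxia list, with the GCGTG matches of both strands in capitals, from 250 bases before the start of the gene (GRCm38.p6, plus strand, chr7:110627407-110627656).
Adm: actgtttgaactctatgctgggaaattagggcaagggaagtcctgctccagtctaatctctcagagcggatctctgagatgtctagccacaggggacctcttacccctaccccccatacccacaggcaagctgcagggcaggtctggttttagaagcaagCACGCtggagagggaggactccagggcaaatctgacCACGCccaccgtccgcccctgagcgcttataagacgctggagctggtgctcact

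**Figure D3:**
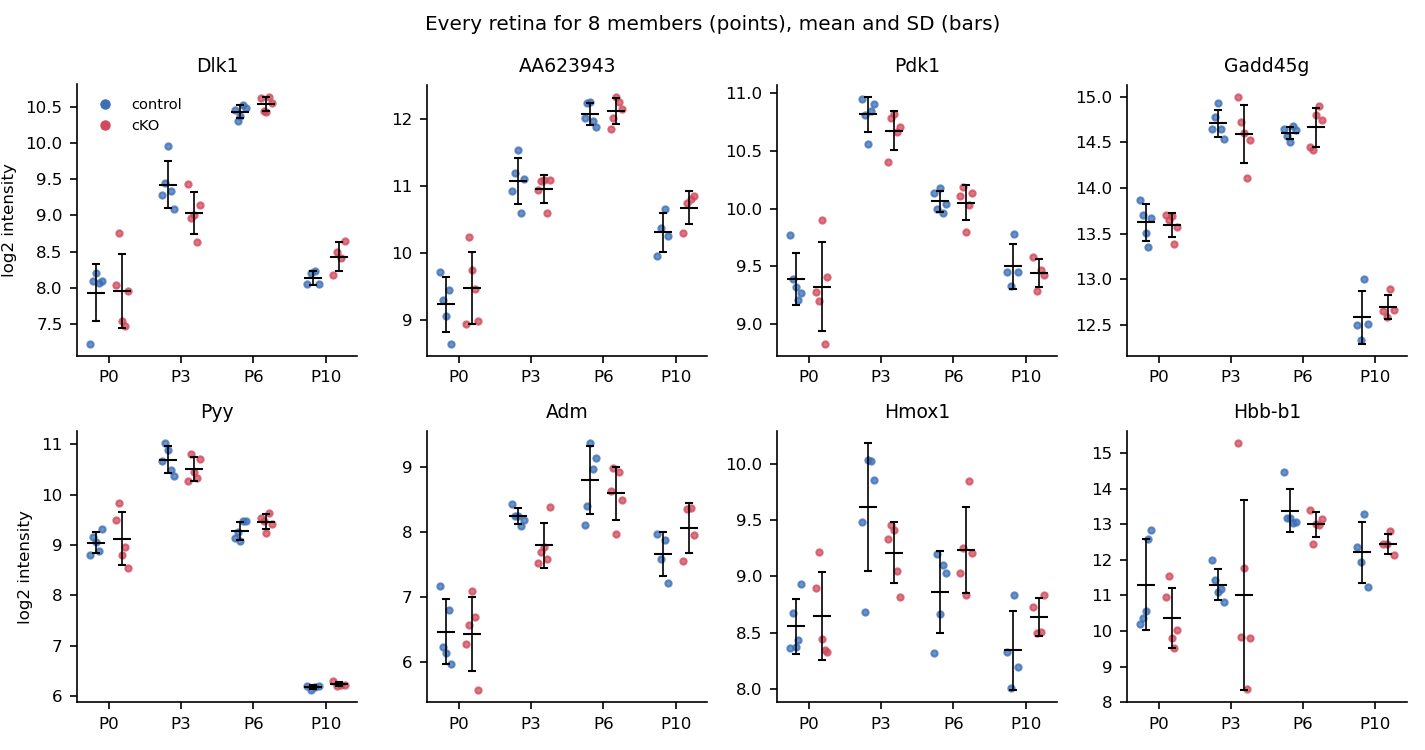
Log2 intensity of every retina by age for 8 members, with control retinas in blue, cKO retinas in red, and bars for the mean and SD of 5 retinas (4 at P10). Dlk1, AA623943, Pdk1 and Pyy separate the peak age from all others, Gadd45g has a plateau over P3 and P6, and Adm, Hmox1 and Hbb-b1 overlap with P10 in cKO retinas.

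Among the P6 members with roles in metabolism and metal handling, Mt2 codes for a metallothionein that binds zinc and copper. Mt2 in cKO retinas read 9.85, 10.86, 10.16, 9.37 and 9.28 at P0, 11.74, 11.21, 11.03, 10.57 and 11.01 at P3, 12.73, 12.65, 12.94, 12.91 and 12.64 at P6, then 11.17, 11.14, 11.39 and 11.44 at P10. Mt2 was thus highest in all P6 retinas, and P3 and P10 overlapped, with a 7.30-fold rise from P0 to P6 (limma adjusted p = 3.28e-12) and 2.80-fold more at P6 than at P10 (adjusted p = 1.5e-05). Sat1, the acetylase of spermidine and spermine, was 13.47 ± 0.16 (SD, n = 5) at P6 in cKO retinas, 4.67-fold above P0 and 2.56-fold above P10. Gal3st4, a sulfotransferase of galactose residues, had the largest rise of a member measured well above background at all ages, 12.2-fold from P0 to P6 (log2 3.60 ± 0.15, limma adjusted p = 5.12e-20), and was 2.54-fold higher at P6 than at P10. Slc27a2 and Acbd7, which handle long-chain acyl-CoA, had a cKO excess of 1.47 and 1.65. Apoc1, an apolipoprotein, and Slc11a1, an iron transporter known from macrophages, were transient in cKO retinas with a smaller excess of 0.64 and 0.74, and the noradrenaline transporter gene Slc6a2 had 1.00.

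Calcium-binding proteins occurred in both groups. Efcab6, with EF-hand domains, was at least 8.71-fold higher at P3 than at P10 in cKO retinas and at least 9.94-fold higher in controls. At P10, 1 of 4 retinas of each genotype gave a signal well above background. The level of the background was taken for the others. As measured, Efcab6 differed by log2 3.42 ± 0.14 between these ages in cKO retinas (limma adjusted p = 2.12e-20). From P0 to P3 it rose by 0.87 in cKO retinas (limma adjusted p = 1.62e-05), but by 0.51 with slide as a block (limma adjusted p = 0.0576), and was then not called. Tesc and Necab3, with EF-hands too, were P6 members with a cKO excess of 1.06 and 0.94, and Stac3, an adaptor of the calcium channel of muscle, was a P3 member with 0.90. Rbp7, a retinol-binding protein, was a P3 member with 0.71.

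Vmn2r123 and Vmn2r121 carry the names of vomeronasal receptors. Vmn2r123 in cKO retinas read 5.18, 5.12, 4.93, 4.87 and 4.72 at P0, 7.65, 6.92, 6.61, 6.42 and 7.31 at P3, 9.15, 8.93, 9.01, 9.24 and 9.26 at P6, then 7.14, 7.39, 7.23 and 7.37 at P10. No P0 retina was well above background for it, and the P6 retinas were above all others. Taken against the background level of the array, Vmn2r123 was at least 14.6-fold higher at P6 than at P0 in cKO retinas and at least 14.9-fold higher in controls. As measured, Vmn2r123 differed by log2 4.15 ± 0.19 between these ages in cKO retinas (limma adjusted p = 5.96e-19), with P0 at background. Its probe has no mapped position, and what else the probes of this large family bind was not tested. Of the 52 members, 45 were well above background in every retina. Besides Vmn2r123 and Efcab6, the exceptions were Tmem92, Ppp1r3g, Gje1, Vmn2r121 and the haemoglobin probe ENSMUST00000023934.

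Position set a further group apart. Members within 50 kb of another member numbered 16 of the 51 with a mapped probe, in 5 runs, so that the 51 lie at 40 separate places. The longest run lies on chromosome 11 (mm9, chr11:94616520-94722131, 105.6 kb) and holds 7 members among 8 array genes, all read from the minus strand and all peaking at P6. Its genes are Gm11545, Tmem92, Gm11546, AA623943, Gm11543, Gm11544 and A430060F13Rik, and those with predicted names were singled out after their values were seen. What these genes do in the retina is not known from the sources used here.

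AA623943 was the brightest of the run. AA623943 in control retinas read 9.72, 9.29, 9.05, 9.45 and 8.64 at P0, 10.93, 11.19, 11.53, 10.59 and 11.10 at P3, 12.02, 12.24, 12.25, 11.98 and 11.88 at P6, then 9.95, 10.37, 10.66 and 10.25 at P10. AA623943 in cKO retinas read 8.94, 10.24, 9.74, 9.46 and 8.99 at P0, 10.94, 11.08, 11.09, 10.60 and 11.08 at P3, 11.85, 12.01, 12.33, 12.25 and 12.15 at P6, then 10.30, 10.75, 10.80 and 10.84 at P10. All P6 retinas lay above all others in both genotypes, and P3 and P10 overlapped. Between P0 and P6 its cKO mean rose 6.24-fold (limma adjusted p = 5.12e-13), and P6 was 2.72-fold above P10 (adjusted p = 1.88e-06). Over the 7 genes the cKO rise from P0 to P6 ranged from 1.97 (Gm11543) to 2.88 log2 units (Tmem92) and the excess over P10 from 1.22 (Gm11546) to 1.82 (Gm11545). Retinas that stood high or low did so for most of the run: among P10 cKO retinas replicate 1 was the lowest for all 7, among P3 controls replicate 3 was the highest and replicate 4 the lowest for all 7, and among P0 cKO retinas replicate 2 was the highest for 6.

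The eighth array gene of this stretch, Gm2217, had a cKO difference from P0 to P6 of -0.81 (limma adjusted p = 0.0535). On either side, Gm11541 and ENSMUST00000058450 were not well above background in any retina. Further out, the cKO difference from P0 to P6 was 0.18 for Col1a1 (limma adjusted p = 0.73) and 0.33 for Xylt2 (adjusted p = 0.00277), and neither passed the threshold against P10. Eme1 was 1.53 higher at P6 than at P10 (limma adjusted p = 5.42e-05) after a difference of -2.35 from P0 to P6, a fall over all ages. These neighbours were named after their values were seen. The 60-base probes of the run share at most 8 bases in a row with each other, and over all 1326 pairs of member probes the longest shared stretch is 11 bases. Whether a probe of the run also binds transcripts of the related genes beside it was not tested, so the 7 may not be 7 separate signals. A second probe of Gm11544 gave a signal well above background in only 2 of 38 retinas and so does not bear on its profile.

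**Figure D4:**
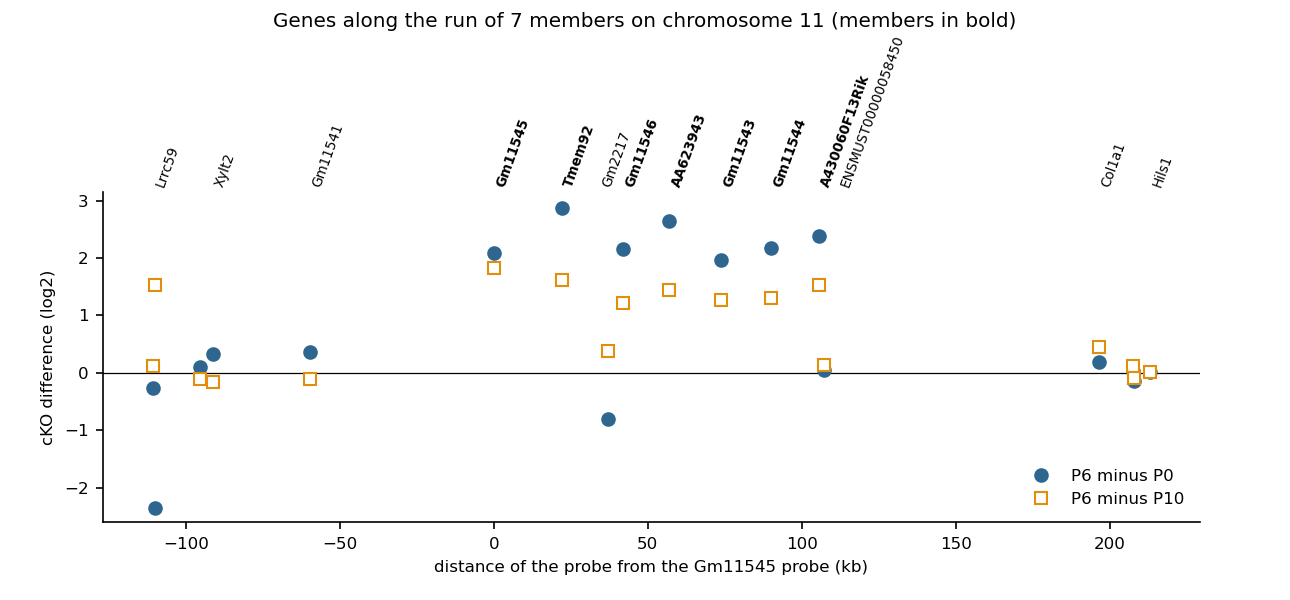
Log2 differences in cKO retinas between P6 and P0 (filled circles) and between P6 and P10 (open squares) for array genes along chromosome 11, by the distance of their probes from that of Gm11545 in kb. The 7 members, in bold, lie above 1 for both differences, and their neighbours do not.

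The promoters of 4 genes of the run were in the reference, and they are shown because these genes move together. Those of Gm11545 and AA623943 share 224 of 265 aligned bases (84.5%), and those of Gm11546 and Gm11543 share 249 of 271 (91.9%). The other pairs of the 4 share 74.3% to 79.9% over shorter alignments. The neighbour Gm11541, not well above background in any retina, has a related promoter too. It shares 67.5% (with AA623943) to 79.1% (with Gm11543), also over shorter alignments. TAATCC, the letters known for binding of Crx and Otx2, and TAATTA, known for many homeodomain factors, were searched on both strands after the members were seen. TAATCC was in 7.06% of all 32851 promoters and in 3 of 31 members, TAATTA in 5.29% and 3 of 31, and both in 0.499% and 3 of 31. The 3 members with both are Gm11545, AA623943 and Robo3, and since the first pair are related in sequence they do not count as separate cases. In the lines that follow, 250 bases before the start are printed on the gene's strand (GRCm38.p6, minus strand of the chromosome), with both motifs in capitals, for Gm11545 (chr11:94761183-94761432), AA623943 (chr11:94817652-94817901), Robo3 (chr9:37433176-37433425), Gm11546 (chr11:94798212-94798461) and Gm11543 (chr11:94829341-94829590), the last 2 of which hold neither.
Gm11545: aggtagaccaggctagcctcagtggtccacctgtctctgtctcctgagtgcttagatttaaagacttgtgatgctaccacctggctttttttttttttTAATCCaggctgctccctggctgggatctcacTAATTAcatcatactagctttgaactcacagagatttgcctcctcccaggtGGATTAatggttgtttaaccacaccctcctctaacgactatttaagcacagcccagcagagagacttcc
AA623943: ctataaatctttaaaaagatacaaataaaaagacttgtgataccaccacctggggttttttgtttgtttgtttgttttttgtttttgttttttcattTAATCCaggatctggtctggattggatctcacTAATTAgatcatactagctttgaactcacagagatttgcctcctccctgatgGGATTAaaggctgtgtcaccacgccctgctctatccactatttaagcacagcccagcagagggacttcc
Robo3: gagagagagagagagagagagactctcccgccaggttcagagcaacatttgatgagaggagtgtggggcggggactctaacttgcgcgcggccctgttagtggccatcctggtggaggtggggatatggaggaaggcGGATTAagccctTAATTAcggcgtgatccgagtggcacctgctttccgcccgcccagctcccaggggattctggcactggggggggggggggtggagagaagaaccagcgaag
Gm11546: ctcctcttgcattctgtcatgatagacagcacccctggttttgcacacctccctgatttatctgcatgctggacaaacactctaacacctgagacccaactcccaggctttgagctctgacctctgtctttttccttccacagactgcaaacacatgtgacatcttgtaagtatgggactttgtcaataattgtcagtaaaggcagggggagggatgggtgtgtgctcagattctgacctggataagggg
Gm11543: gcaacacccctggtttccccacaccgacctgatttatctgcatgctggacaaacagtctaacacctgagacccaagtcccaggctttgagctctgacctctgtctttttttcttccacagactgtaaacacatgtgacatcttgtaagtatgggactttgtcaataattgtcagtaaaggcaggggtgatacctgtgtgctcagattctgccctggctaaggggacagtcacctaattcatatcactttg

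The other runs were short. Stac3, Ndufa4l2 and Nxph4 lie within 16.93 kb on chromosome 10 with Shmt2 among them, Necab3 and 1700003F12Rik within 4.95 kb on chromosome 2, ENSMUST00000112915 and Tnfsf9 within 15.66 kb on chromosome 17, and Hbb-b1 and ENSMUST00000023934 within 15.33 kb on chromosome 7 with Hbb-b2 between them. The Stac3 and Necab3 runs each mix P3 and P6 members.

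Haemoglobin genes formed the remaining group and were not transient in cKO retinas. Hba-a2, Hbb-b1 and ENSMUST00000023934 code for the alpha and beta chains of the oxygen carrier of red blood cells. Hba-a2 in control retinas read 13.48, 12.75, 13.19, 15.08 and 15.60 at P0, 14.35, 13.95, 13.45, 13.46 and 13.33 at P3, 17.12, 15.76, 15.32, 15.37 and 15.43 at P6, then 15.06, 14.32, 15.85 and 13.82 at P10. Hba-a2 in cKO retinas read 13.57, 13.82, 12.43, 12.02 and 12.83 at P0, 17.59, 12.32, 14.23, 10.86 and 11.99 at P3, 15.87, 14.91, 14.97, 15.35 and 15.61 at P6, then 15.09, 14.95, 15.28 and 14.99 at P10. The P3 cKO retinas spread over more than 6 log2 units, with replicate 1 above all P6 retinas, and P6 and P10 overlapped in both genotypes. The control excess that made these probes members was 1.05 for Hba-a2, 1.18 for Hbb-b1 and 1.11 for ENSMUST00000023934 in the deposited values. Replicate 1 of the P6 controls lay far above the other P6 controls for all 3. The other P6 controls read 15.32 to 15.76 for Hba-a2, 13.03 to 13.19 for Hbb-b1 and 9.98 to 10.24 for ENSMUST00000023934. The P10 control means were 14.76, 12.21 and 9.27. In these recomputed values the mean of the other P6 controls is less than 1 above P10 for all 3. Their membership thus rests on that retina. In cKO retinas P6 exceeded P10 by 0.26 ± 0.77 for Hba-a2 (limma adjusted p = 0.855, exact permutation p = 0.302), by 0.54 ± 0.78 for Hbb-b1 (limma adjusted p = 0.676, exact permutation p = 0.0476) and by 0.25 for ENSMUST00000023934 (limma adjusted p = 0.859). All 3 were above P0 at P6, for example Hbb-b1 by 2.63 ± 0.73 (limma adjusted p = 0.00385).

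The 3 haemoglobin probes moved together from retina to retina. Their mean in cKO retinas was 10.78, 11.19, 9.69, 9.09 and 9.92 at P0, 14.88, 9.59, 11.59, 8.20 and 9.43 at P3, 13.28, 12.18, 12.56, 12.67 and 12.91 at P6, then 12.33, 12.41, 12.58 and 12.16 at P10. Among controls it was 10.44, 10.18, 10.43, 12.37 and 12.73 at P0, 11.50, 11.28, 10.84, 10.84 and 10.69 at P3, 14.37, 13.06, 12.83, 12.82 and 12.83 at P6, then 12.26, 11.79, 13.11 and 11.17 at P10. The list held 9 blood markers, of which Hba-a1 was the brightest. In cKO retinas 5 were higher at P6 than at P0 by limma and 1 was lower, against 19.5% and 20.3% of all genes. Higher at P6 than at P10 were 0, against 14.2% of all genes, so 0 of 9 does not set the list apart. The mean of the 9 per cKO retina was 7.58, 7.92, 7.33, 7.13 and 7.36 at P0, 9.98, 7.32, 8.07, 6.44 and 6.84 at P3, 8.89, 8.40, 8.51, 8.50 and 8.67 at P6, then 8.31, 8.45, 8.53 and 8.23 at P10. For controls it was 7.37, 7.40, 7.54, 8.36 and 8.51 at P0, 8.19, 7.88, 7.62, 7.59 and 7.68 at P3, 9.41, 8.84, 8.56, 8.38 and 8.45 at P6, then 8.43, 8.13, 8.69 and 7.71 at P10. Hba-a1 in cKO retinas was 11.68 at P0, 12.25 at P3, 14.01 at P6, then 13.92 at P10. The part of blood left in the tissue in the haemoglobin values was not tested.

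At matched ages the members did not separate the genotypes. By limma 0 of 52 members passed an adjusted p of 0.05 for cKO against control at P0, P3, P6 or P10, where 0%, 0.00315%, 0% and 0.00315% of all genes did, and the methods' t-test with the same adjustment gave 0 members at each age. An unadjusted limma p below 0.05 was found for 1 member at P0, 6 at P3, 0 at P6, then 2 at P10, against 0.489%, 5.76%, 0.707% and 1.70% of all genes. The 6 at P3 were Dlk1, Vmn2r123, Tesc, 1700003F12Rik, Efcab6 and 0610040J01Rik, all lower in cKO retinas, by 0.29 to 0.56 log2 units. These counts are from the fit without the array as a block, and with it 0 members passed the adjusted threshold at each age. Within the arrays, Tesc, 1700003F12Rik and 0610040J01Rik were lower in the cKO retina on every P3 array, whereas Dlk1, Vmn2r123 and Efcab6 were not. At P10 all members of the chromosome 11 run were higher in the cKO retina on every array, which turns with the genotypes exchanged.

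The median cKO minus control difference of the members was 0.05 at P0, -0.15 at P3, -0.01 at P6, then 0.16 at P10, against -0.02 or nearer to 0 for all genes at each age. The cKO mean was the higher in 34 of 52 members at P0, 6 at P3, 20 at P6, then 43 at P10. At the members' own peak ages the median was -0.06, against -0.02 for all genes, and it was -0.02 for the 35 genes chosen on the cKO columns. Control values chose the members, which lowers this difference at the peak and raises it at P0 and P10. For the 39 P6 members P3 is none of these ages, and the cause of the lower cKO values at P3 was not tested. Many of the members share their retinas' high or low standing, so these counts are not independent. At P10 they change sign with the genotypes exchanged. Robo3 had the largest difference upwards at P3 (0.38), and Vmn2r123 the largest downwards (-0.56, limma adjusted p = 0.79).

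Cell programmes as a whole were compared by 27 marker lists, which hold 4 of the members, Gadd45g on the neurogenic precursor list, Pdk1 and Adm on the hypoxia list and Hbb-b1 on the blood list. The other 48 members are on none, and 24 lists hold no member. Over the 399 list genes measured, 18 (4.51%) were transient at P3 or P6 in cKO retinas, against 2.52% of all genes. They were spread over 11 lists, and 16 lists had none. Apart from members, the list genes named from here on were chosen after their values were seen.

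The neurogenic precursor list had 4 transient genes of 18, Gadd45g, Neurod4, Btg2 and Insm1. Neurod4, which codes for a helix-loop-helix factor of newborn retinal neurons, read 10.87, 11.15, 11.08, 10.57 and 10.58 in cKO retinas at P0, 11.95, 11.92, 11.97, 12.08 and 12.10 at P3, 12.26, 12.07, 12.13, 12.03 and 11.87 at P6, then 11.15, 11.09, 11.23 and 11.15 at P10. It had the plateau of Insm2 and Gadd45g without overlap with P0 or P10, and its control excess of 0.98 fell just short of the rule. Of the whole list, 15 of 18 genes were higher at P3 than at P10 in cKO retinas, against 20.2% of all genes, and 14 were lower at P10 than at P0, against 25.3%. Between P0 and P3, 5 were higher at P3 and 5 lower, against 6.93% and 7.11% of all genes. The mean of the list per cKO retina was 12.67 to 12.82 at P0 and 12.72 to 12.80 at P3, and it was lower at P6 (11.83 to 11.93), with a further fall by P10 (10.26 to 10.54).

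Of the 18 hypoxia genes, 12 were above P0 at P3, P6 and P10 alike in cKO retinas, against 5.62% of all genes, and Pdk1 and Kdm3a were transient. Other lists had such genes too, among them 12 of 12 rod, 15 of 25 microglia and macrophage and 11 of 22 synapse genes. Taken age by age, 15 were higher than at P0 at P3, 13 at P6, then 13 at P10, against 6.93%, 19.5% and 22.4% of all genes, and 0, 2 and 3 were lower, against 7.11%, 20.3% and 25.3%. Bnip3, a mitochondrial protein induced by low oxygen, was 12.89 at P0, 14.40 at P3, 14.55 at P6, then 14.26 at P10, and Vegfa, the growth factor of vessels, was 11.97, 12.74, 12.65 and 12.97. The mean of the 18 genes per cKO retina was 10.69, 10.87, 11.11, 10.70 and 10.83 at P0, 11.55, 11.70, 11.73, 11.26 and 11.78 at P3, 11.57, 11.72, 11.53, 11.72 and 11.62 at P6, then 11.52, 11.45, 11.52 and 11.40 at P10. It was above all P0 retinas from P3 on.

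Further transient list genes in cKO retinas were Neurod2, Neurod6 and Nr4a2 of 16 amacrine genes, Angpt2 and Esm1 of 26 endothelial, Prdm1 of 11 photoreceptor precursor, Gngt2 of 11 cone, Sox9 of 17 Müller glia, Pdgfra of 9 astrocyte, Igf2 of 17 basement membrane and mesenchyme, Hrk of 11 cell death and Robo1 of 28 axon guidance genes. Pdgfra, the growth factor receptor of retinal astrocytes, read 10.98, 10.95, 10.99, 10.86 and 10.91 in the P6 cKO retinas and 10.03, 10.27, 10.16 and 10.33 at P10, after 8.26 to 9.63 at P0. Esm1, known from the tip cells of growing vessels, had a control excess of 1.61 but its peak level stayed under 8. Its cKO values were 7.87, 7.90, 7.57, 7.79 and 7.58 at P6, then 5.59, 6.65, 6.48 and 6.45 at P10. Sox9, a factor of progenitors and Müller glia, was highest at P3, at 11.48, 11.51, 11.48, 11.51 and 11.46 in cKO retinas, against 10.75 to 11.29 at P0.

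Between P0 and P10 in cKO retinas, lists differed in how many genes went up or down by limma at an adjusted p below 0.05, where 22.4% of all genes were higher at P10 and 25.3% lower. All 11 proliferation genes, 11 of 12 retinal progenitor genes, 14 of 18 neurogenic precursor and 16 of 18 cholesterol synthesis genes were lower at P10, and 0, 1, 3 and 1 were higher. All 12 rod genes, 15 of 18 bipolar, 18 of 22 synapse, 22 of 26 endothelial, 22 of 25 microglia and macrophage and 9 of 11 mural genes were higher, and 0, 1, 1, 2, 0 and 1 were lower. Higher and lower numbered 8 and 2 of 11 cone, 11 and 5 of 16 amacrine, 3 and 1 of 5 horizontal, 5 and 9 of 14 ganglion cell, 11 and 5 of 17 Müller glia, 7 and 0 of 9 astrocyte and 6 and 4 of 11 photoreceptor precursor genes. They were 10 and 2 of 17 basement membrane and mesenchyme, 4 and 1 of 9 blood, 13 and 3 of 18 hypoxia, 7 and 3 of 14 immediate early, 4 and 0 of 12 interferon, 1 and 7 of 11 cell death and 10 and 12 of 28 axon guidance genes. Tissue from outside the neural retina was represented by 10 pigment epithelium genes with 4 higher and 1 lower, 16 lens genes with 1 and 0, and 10 cornea, skin and muscle genes with 2 and 3.

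**Figure D5:**
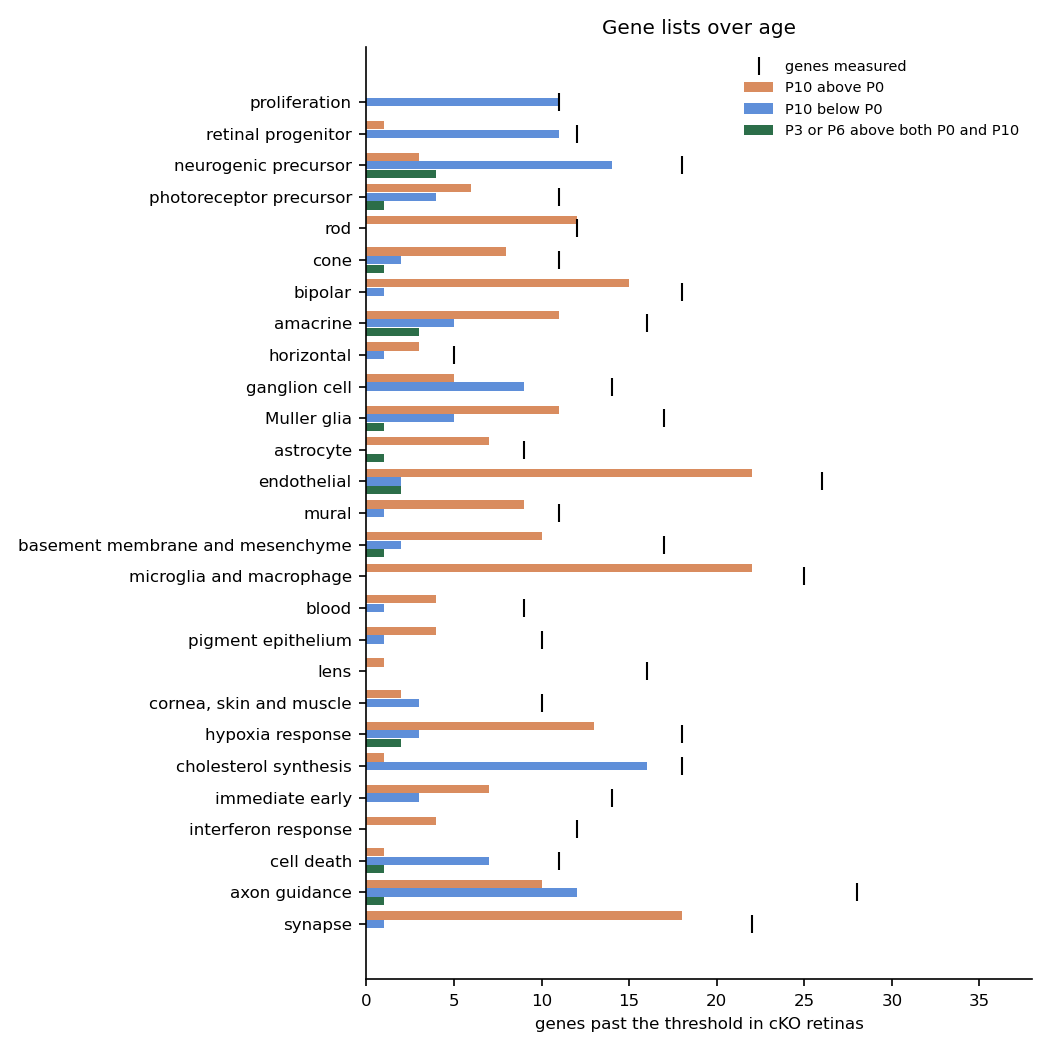
Number of genes per marker list that were higher at P10 than at P0 (orange), lower (blue) or transient at P3 or P6 (green) in cKO retinas by limma, with a tick at the number measured. Green bars reach at most 4 genes, in the neurogenic precursor list.

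How far the choice of members depends on its thresholds is shown by the genes at its edge. Just inside were 2010001M09Rik, 0610040J01Rik and Kcne1l, with a control excess of 1.003, 1.017 and 1.017 in the deposited values, and just outside were Gngt2, 3110035E14Rik and Gm4235 with 0.9959, 0.9934 and 0.9899. Gngt2 codes for a subunit of cone transducin. An excess of 0.5 chose 242 genes and an excess of 1.5 chose 20, while a minimum level of 7 or 9 chose 58 or 40. With the P10 genotypes exchanged 41 genes were chosen, all of them members. Taking each probe on its own gave 53 genes, with all 52 members. Members with a second probe on the array included Dlk1, Insm2, Kcne1l, Nxph4, Vmn2r121, Hmox1 and Gm11544, and beside those given above the dimmer probe had a control excess of 0.71 for Insm2, 0.47 for Kcne1l, 0.68 for Nxph4 and 0.63 for Vmn2r121.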

How the data were processed

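Single retinas were hybridized to 2-colour Agilent arrays, 19 of which were analysed, with 5 arrays at P0, P3 and P6 and 4 at P10. The files deposited by the authors hold spot intensity and local background from Agilent Feature Extraction, a processed intensity, and log2 intensities made with normexp and quantile normalization in limma. The deposited log2 table chose the members (43020 features, 39429 probes, 31829 gene names). It also holds p-values and fold changes of the authors' comparisons, which were not used.

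For the tests, the scanner intensities were background corrected with normexp (offset 0), the 38 channels were quantile normalized together, control spots (1377 of 44397 features) and 158 saturated or non-uniform features were left out, and the spots of 39283 probes were averaged. limma fitted 1 mean per age and genotype, and p-values were adjusted by Benjamini-Hochberg over all probes. Single members were also compared between ages by exact permutation, two-sided, over the cKO retinas, with a smallest possible p of 0.00794 for 5 against 5 and 0.0159 for 5 against 4. The number of arrays limits the precision. The fit was tested on simulated data. Tools were R 4.3.3, limma 3.58.1, the R package data.table in version 1.17.8, statmod 1.5.0, Python 3.11.15, pandas 2.3.3, numpy 2.4.6, scipy 1.17.1 and Biopython 1.88.

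Named genes were the 10 members with the largest control excess at each peak age that carry a gene symbol, up to 4 members of each marker list, members past the threshold between genotypes, the 5 with the smallest cKO excess, and 3 on each side of the excess of 1. Other genes are named where a role, a position or an exception is described, after their values were seen. The members and lists were chosen with earlier results of these data known.

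That the retinas of an array belong together comes from the array file and its dye labels. It was checked by the correlation across probes of their deviations from the group means, which was 0.19 to 0.81 on the 19 arrays. Alternatives were other normexp offsets and normalizations, the processed intensities, the deposited values, saturated features kept, a filter on low values, dye, array, slide or replicate number in the model, P10 genotypes exchanged, only cKO retinas in the fit, the methods' t-test, other thresholds of the rule, values within slides, and each array left out.

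Probe positions are those of mm9 in the file headers. Promoters are from RefSeq (GRCm38.p6), with 31 members matched. Of the members' accessions, 43 were found in RefSeq, 40 with the same symbol, and names are those of the files.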

Additional observations from a re-analysis of the deposited data

Results flagged for a closer look

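In 12 of 240 groups (30 named genes, 8 groups each) a single retina lay far from the others, its gap to the next being a large part of the range of the group. Chance alone flags about 1 in 20 groups. Log2 intensities are given with the range of the other retinas of the group.

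At P6, control replicate 1 was high for the haemoglobins, at 14.48 for Hbb-b1 (others 13.03 to 13.19), 11.49 for ENSMUST00000023934 (9.98 to 10.24) and 17.12 for Hba-a2 (15.32 to 15.76). These 3 probes move together, so they are a single observation.

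At P0, control replicate 1 was high for Ndufa4l2 at 14.29 (13.55 to 13.72) and low for Dlk1 at 7.23 (8.06 to 8.20), and control replicate 5 was low for Ppp1r3g at 6.46 (6.99 to 7.18). Among P0 cKO retinas, replicate 2 was high for Gal3st4 at 8.58 (7.51 to 7.82). Replicate 5 of the P3 cKO group was high for Adm at 8.39 (7.52 to 7.77).

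At P10, cKO replicate 1 was low for Sat1 at 11.62 (12.20 to 12.31) and for Gal3st4 at 9.77 (10.21 to 10.23). Control replicate 4 was high for Efcab6 at 5.66 (5.00 to 5.09), near the background of the array, and control replicate 3 was high for Tmem92 at 7.63 (6.96 to 7.00). The cause of these values was not tested.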

How the results depend on the processing

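The count of members transient in cKO retinas, 47, was 46 with the processed intensities (without Gje1), 46 with slide as a block (without Efcab6) and 48 with the P10 genotypes exchanged (with Adm). It was 47 in the other alternatives, with the array or the replicate number as a block as well, where pairing comes from the array. Leaving out 1 array at a time gave 46 to 48. The median cKO excess of 1.14 moved to 1.01 with a normexp offset of 50 and to 1.23 with slide as a block, and was 1.15 with the array as a block and 1.09 to 1.19 with 1 array left out.

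Between genotypes, 0 members passed at any age in all alternatives run. These used limma, including the array as a block and each array left out (0 to 0), except the methods' t-test. In the fit reported, 1, 6, 0 and 2 members had an unadjusted limma p below 0.05 at P0, P3, P6 and P10. The median cKO minus control difference at the peak, -0.0599, was -0.0477 with the array as a block and -0.0767 to -0.0479 with 1 array left out.

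The number of genes chosen moved from 52 to 242 with an excess of 0.5 and to 20 with 1.5, which follows from the rule. Within the slide with 3 P3 and 1 P0 cKO retinas, 3 in place of 12 P3 members passed, against 1.05% of all genes, and within that with 3 P6 and 1 P10 cKO retinas, 36 in place of 35 P6 members, against 10.5%. With a single retina at 1 age, which is assumed to vary like the others, neither count tests the difference, and both are descriptions.

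Of 930 values of single genes under alternatives, 925 kept their direction and call. With slide as a block, Hba-a2 reversed to -0.12 and Gm4235 to -0.325, neither past the threshold, and Efcab6 was no longer called (0.51, limma adjusted p = 0.0576). Adm was called with the P10 genotypes exchanged (0.94), and Hmox1 without P0 replicate 2 (0.57, adjusted p = 0.0489). The cause was not tested. Signal over background limits Vmn2r123, Tmem92, Gje1 and Efcab6, whose lowest ages are near background, so their differences may be compressed.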
